A study of Mus musculus with 14 samples.

Results

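The subcortical maternal complex is a large protein assembly under the cortex of the growing oocyte, and 8 of its genes and of the genes of the associated cytoplasmic lattices were followed here in RNA-seq counts of full-grown mouse oocytes. They are Nlrp5 (MATER), Ooep (FLOPED), Tle6 and Khdc3 (FILIA), which encode the core of the complex, Padi6, which the lattices need in order to form, Zbed3, and the 2 related NLR genes Nlrp2 and Nlrp4f. These are 8 of 20337 genes with a symbol in the count tables. They were taken as a named list, and the RefSeq transcript with the highest mean count stood for each gene. Only Nlrp5 had 2 counted transcripts, and the others had 1 each.

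The mRNAs of these genes are made during oocyte growth and stored, and their proteins are known to persist into the early embryo. The complex is known for maternal effects: eggs that lack Nlrp5, Ooep, Tle6 or Padi6 are fertilized, but the embryos arrest in early cleavage. The lattices are fibres that fill the cytoplasm of the mature oocyte and are thought to store maternal proteins. Transcription of several of the genes depends on FIGLA, a helix-loop-helix factor that binds E-box sequences.

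Oocytes were full-grown and still had an intact germinal vesicle. They came from females of 4 to 6 weeks that had received 5 IU of the gonadotropin eCG, and were collected 48 h later. Each library held 20 oocytes pooled from at least 3 mice of a genotype. The 5 groups were Ago2 fl/fl (3 libraries, labelled wild-type, both alleles floxed and no Cre), Ago2 ADH (3 libraries), Ago2 null (2 libraries), Dicer WT (3 libraries) and Dicer KO (3 libraries). AGO2 is the Argonaute that cuts RNAs paired with a small RNA, and DICER makes microRNAs and endogenous siRNAs. Ago2 ADH oocytes carry 1 floxed allele, 1 allele with an amino acid change in the catalytic site that ends cleavage, and Cre driven by the Zp3 promoter, which is active in growing oocytes. Ago2 null oocytes carry 2 floxed alleles and the same Cre, so wild-type AGO2 made before Cre acted can remain in both. The Dicer deletion is likewise specific to oocytes, and the Cre status of Dicer WT was not given in the sources used here. Nothing in the labels says that Ago2 and Dicer mice share a control, and the 2 series were tested apart. The 20 oocytes of a library were pooled, and p-values measure the spread between these pools.

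Libraries held 29380403 to 58285057 counts over transcripts, so 3 counts corresponded to 0.0515 to 0.102 CPM (counts scaled to an equal library size) and none of the members was near that floor. Ago2 itself ranged over 681 to 756 normalized counts in Ago2 ADH against 1277 to 1351 in Ago2 fl/fl, and over 298 to 405 in Ago2 null against 1328 to 1409 in Ago2 fl/fl (counts scaled within each comparison). It was also lower in Dicer KO (log2 fold change -0.56, SE 0.115). Dicer1 was higher in Dicer KO (1.26, SE 0.0629) and also in Ago2 ADH (0.67, SE 0.0434) and Ago2 null (0.59, SE 0.0510), and a count over the whole transcript cannot show whether part of the gene was deleted and does not check that label. The 6 oocyte markers (Zp1, Zp2, Zp3, Gdf9, Bmp15, Oosp1) summed to 8971 to 14355 CPM. The highest counts of the 12 granulosa and cumulus markers were 2422 for Nr5a2, 2398 for Cyp19a1, 163 for Ptgs2, 88 for Inha and 85 for Has2. They were 74 for Inhba, 60 for Hsd17b1, 58 for Fshr, 14 for Tnfaip6, 12 for Amh, 7 for Foxl2 and 1 for Ptx3. The 12 markers summed to 73.8 to 79.7 CPM in Ago2 fl/fl, 57.1 to 64.5 in Ago2 ADH, 53.8 to 56.4 in Ago2 null, 92.3 to 100.5 in Dicer WT and 78.1 to 82.4 in Dicer KO. Most of this was Nr5a2 and Cyp19a1. Of the list, 3 of 8 tested genes were lower in Ago2 ADH (20.1% of all transcripts), 1 of 9 in Ago2 null (19.1%) and 2 of 6 in Dicer KO (17.8%). None was higher, against 20.5%, 18.1% and 16.7% of all transcripts. The part of these markers in the results that follow was not tested. The 4 theca markers summed to 1.66 to 2.76 CPM in Ago2 fl/fl, 3.75 to 9.25 in Ago2 ADH, 2.15 to 3.54 in Ago2 null, 2.00 to 2.46 in Dicer WT and 1.53 to 1.81 in Dicer KO. Among them Cyp11a1 was higher in Ago2 ADH (1.73, SE 0.329) and lower in Dicer KO (-2.91, SE 0.519). The highest counts of the theca markers were 410 for Cyp11a1, 92 for Star, 12 for Lhcgr and 8 for Cyp17a1. The 3 blood markers summed to at most 0.0996 CPM. The share of tallied alignments that were not unique also moved with genotype, at 33.2 to 34.6% in Ago2 fl/fl, 57.3 to 58.1% in Ago2 ADH, 57.0 to 58.3% in Ago2 null, 25.6 to 31.5% in Dicer WT and 44.4 to 49.5% in Dicer KO. Reads of 36 and of 50 bases were used in the study, and which library had which is not given in the sources used here. The part of these shares and of the theca markers in the results was not tested.

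The members ranged from rank 3 to rank 1117 of 20241 genes in Ago2 fl/fl oocytes. Levels are given as CPM per kilobase of transcript, scaled over the 14 libraries, so that genes of different length can be set side by side. In Ago2 fl/fl oocytes Zbed3, which takes part in the placing of organelles in the oocyte, stood at 2417 ± 18.7 (SD, n = 3) and ranked number 3 of 20241 genes. Ooep, whose KH-like protein binds to MATER and TLE6, stood at 1861 ± 125 and ranked number 6. Padi6 followed at 601 ± 16.4, Tle6 at 464 ± 23.7, Nlrp5 at 316 ± 4.91, Nlrp4f at 171 ± 3.33 and Nlrp2 at 82.0 ± 2.52. Khdc3, another KH-domain gene, was the lowest at 55.7 ± 2.02 and ranked number 1117. In Ago2 fl/fl no neighbours in this order overlapped over libraries.

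By the same transcript lengths the order also held in Dicer WT oocytes with 1 overlap: Zbed3 2385 ± 89.0, Ooep 807 ± 36.2, Padi6 414 ± 21.7, Tle6 302 ± 6.58, Nlrp5 296 ± 30.6, Nlrp4f 223 ± 11.4, Nlrp2 106 ± 3.88 and Khdc3 46.8 ± 2.93 (n = 3). Tle6 and Nlrp5 overlapped there. Ooep, Padi6 and Tle6 stood lower in Dicer WT than in Ago2 fl/fl, and Nlrp4f and Nlrp2 higher. The 2 control groups come from separate series, so these values are set side by side without a test. The level of Ooep also rests on the length assigned to its transcript: within the RefSeq gene bounds it was 1207 instead of 2138 bases, which put Ago2 fl/fl at 3297 and Dicer WT at 1429.6 CPM per kilobase. With that length Ooep stood above Zbed3 in Ago2 fl/fl and below it in Dicer WT. The order of Zbed3 and Ooep and their ranks therefore rest on the length used. Together the 8 transcripts made up 1.30 to 1.34% of transcript counts in Ago2 fl/fl, 1.15 to 1.20% in Ago2 ADH, 1.19% in both Ago2 null libraries, 1.00 to 1.02% in Dicer WT and 0.963 to 1.00% in Dicer KO.

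**Figure D1:**
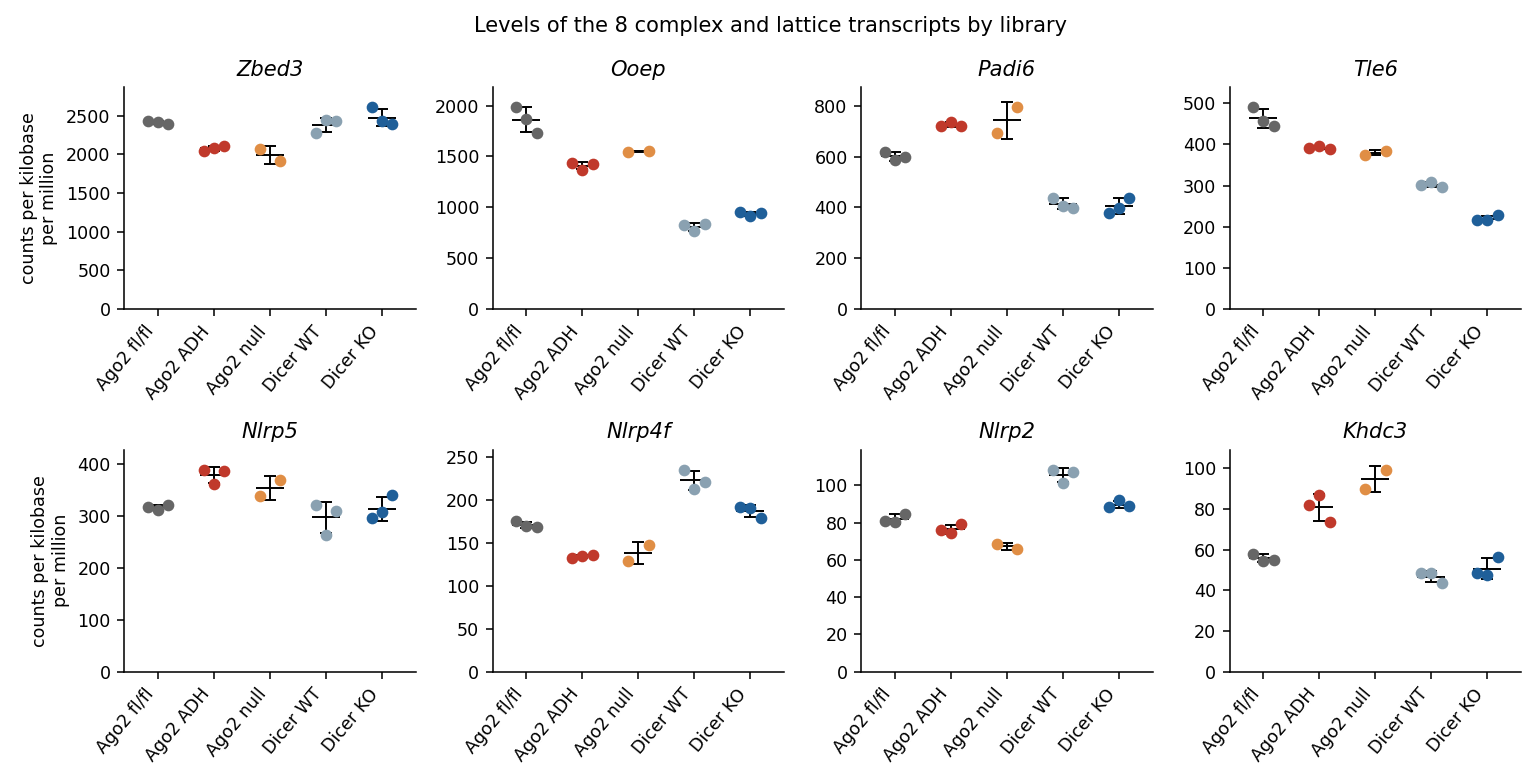
Level of each member in CPM per kilobase of transcript (vertical axes, each from 0) in the 14 libraries (points), by group, with the group mean (bar) ± SD. Khdc3, Padi6 and Nlrp5 lay higher in the Ago2 ADH and Ago2 null libraries than in every Ago2 fl/fl library. Ooep, Tle6, Zbed3, Nlrp4f and Nlrp2 lay lower, though Nlrp2 counts scaled within the Ago2 ADH comparison overlapped. The share of all transcripts that separated in this way was not counted.

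The genes lie on 5 chromosomes of GRCm38, the build called mm10 in the study. Nlrp5 is at chr7:23385889-23441923, with 16 exons in the transcript counted, and Nlrp2 at chr7:5298547-5351035, with 12. Ooep, at chr9:78376903-78378588, and Khdc3, at chr9:73101381-73106631, have 3 exons each. Tle6 is at chr10:81590904-81601185 (14 exons) and Padi6 at chr4:140727355-140742643 (16 exons). Zbed3, at chr13:95323605-95337842, has 2 exons and Nlrp4f, at chr13:65177111-65205716, has 10. Khdc3 shares 790 exonic bases with the same-strand annotation Gm20509, so reads of the 2 cannot be told apart, and no other member shares exonic sequence.

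Upstream sequence is shown for Khdc3, Padi6 and Nlrp5, the members that were higher in both Ago2 mutants. Each runs 5′ to 3′ on the strand of the gene, is taken from RefSeq (GRCm38.p6), ends at the base before the annotated start and is limited to bases that no annotated exon covers. The start used for Khdc3 lies inside its gene bounds, because another annotated transcript begins further upstream. Capitals mark E-boxes (CANNTG, which reads the same on both strands).
Khdc3, chr9:73102205-73102397 (+ strand): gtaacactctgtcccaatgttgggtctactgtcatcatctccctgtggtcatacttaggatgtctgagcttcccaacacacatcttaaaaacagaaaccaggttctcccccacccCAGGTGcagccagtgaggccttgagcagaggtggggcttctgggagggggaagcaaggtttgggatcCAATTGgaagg
Padi6, chr4:140742644-140742893 (- strand): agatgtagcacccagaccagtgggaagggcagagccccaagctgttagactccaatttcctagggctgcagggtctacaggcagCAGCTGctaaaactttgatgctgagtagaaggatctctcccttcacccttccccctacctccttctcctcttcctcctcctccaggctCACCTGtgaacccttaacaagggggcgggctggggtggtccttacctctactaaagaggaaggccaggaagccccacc
Nlrp5, chr7:23385639-23385888 (+ strand): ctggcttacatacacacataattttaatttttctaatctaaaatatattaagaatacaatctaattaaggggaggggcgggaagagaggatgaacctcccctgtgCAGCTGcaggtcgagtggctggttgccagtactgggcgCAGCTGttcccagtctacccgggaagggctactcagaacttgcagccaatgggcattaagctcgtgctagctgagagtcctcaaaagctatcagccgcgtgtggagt
Over the full 250 bases before the start, 7 of the 8 members held at least 1 E-box, against 66.2% of 32851 promoters of that length. Khdc3 held 5, of which 2 overlap, Nlrp5, Padi6 and Tle6 held 2 each, Ooep, Zbed3 and Nlrp4f held 1 each, and Nlrp2 held none. Annotated exons covered 250 bases of the window in Nlrp4f, 137 in Ooep, 95 in Tle6, 57 in Khdc3 and 40 in Nlrp2. In the longest stretch free of exons, Ooep and Tle6 held no E-box, and Nlrp4f had no such stretch. The starts used for Zbed3 and Ooep lay 412 and 137 bases from those of the transcripts counted. Both E-boxes of Nlrp5 read CAGCTG, starting 145 and 107 bases before the start, and Padi6 had the same letters 166 bases before its start. The element TAATTA or TAATTG, searched on both strands for the oocyte homeobox factor NOBOX, was in the windows of Nlrp5 and Ooep (11.3% of all promoters). TATAAA, also searched on both strands, was in that of Zbed3, on the strand opposite to the gene (12.4%). These are letter matches and not measured sites.

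The first question was how the mRNAs of the members differed in Ago2 ADH oocytes. These oocytes also had Cre and less Ago2 mRNA than Ago2 fl/fl, so an effect of lost cleavage alone was not tested. In Ago2 ADH against Ago2 fl/fl oocytes 7 of the 8 members differed at an FDR of 1%, 3 higher (background 20.5%) and 4 lower (20.1%), while 40.7% of all 18835 transcripts tested did so and 57.3% of those at least as abundant as the least abundant member. The changes were small and split: Khdc3, Padi6 and Nlrp5 rose, and Ooep, Nlrp4f, Tle6 and Zbed3 fell. Their median log2 fold change was -0.11, against 0.0069 for all transcripts and -0.08 for those at least as abundant, and their median absolute change was 0.30, against 0.20 for the latter. None reached a 2-fold change, which 2454 transcripts did. Counts are relative within a library of 20 oocytes. A change of a member therefore cannot be told apart from a change in the rest of the RNA. A pool also cannot show whether all of its oocytes changed.

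In Ago2 null against Ago2 fl/fl oocytes, which use the same control libraries, 8 of 8 members differed (background 37.2% of 19236 transcripts, and 55.0% among those at least as abundant), 3 higher and 5 lower against 18.1% and 19.1% of all transcripts, with a median of -0.24 against 0.0018 overall and -0.11 among those at least as abundant. That count rests on few libraries: it was 3 without Ago2 fl/fl replicate 2, when Khdc3, Padi6 and Nlrp2 were called and the other members had adjusted p-values of 0.0101 to 0.0466. In Dicer KO against Dicer WT oocytes 4 of 8 differed (background 34.5% of 18570, and 50.6% among those at least as abundant), Ooep higher (background 16.7%) and Tle6, Nlrp4f and Nlrp2 lower (17.8%), with a median of 0.0082 against -0.0044 overall and -0.06 among those at least as abundant. The median absolute change was 0.26 in Ago2 null (0.23 among those at least as abundant) and 0.16 in Dicer KO (0.22). Without Dicer WT replicate 1 that count was 1, Tle6 alone. No member reached 2-fold in either comparison, against 2388 and 2302 transcripts.

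**Figure D2:**
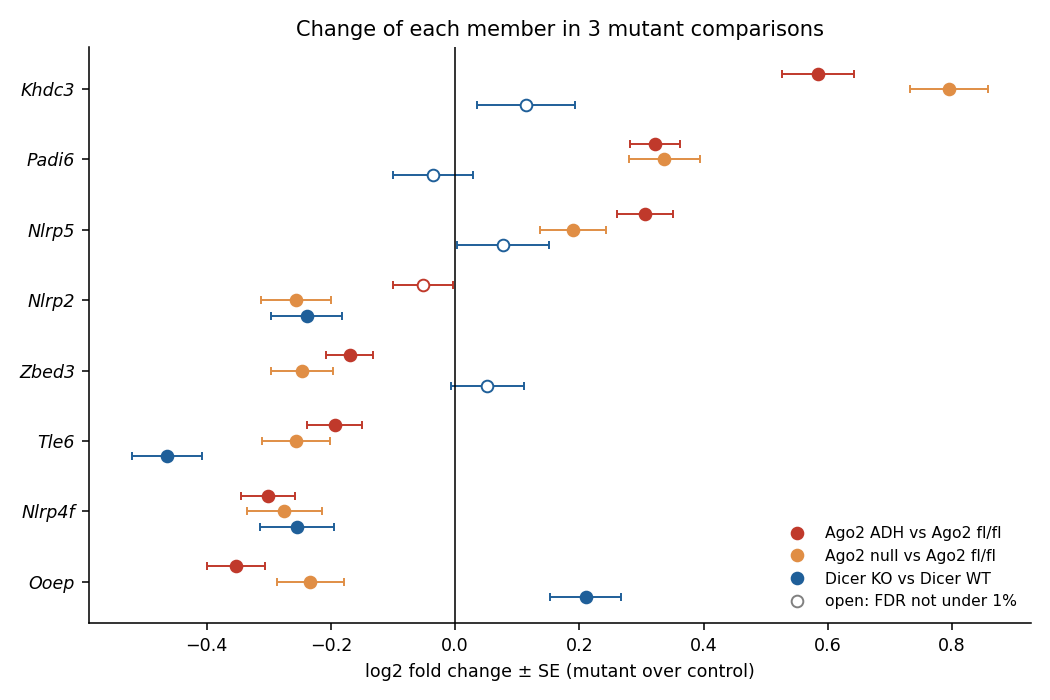
Log2 fold change ± SE (horizontal axis) of each member in Ago2 ADH and Ago2 null over Ago2 fl/fl and in Dicer KO over Dicer WT. Filled points passed an FDR of 1% in edgeR's quasi-likelihood test, and the largest values were those of Khdc3 in the Ago2 mutants, 0.58 and 0.80.

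Khdc3 encodes FILIA, a member of the complex known for keeping chromosome number stable in early embryos. It stood at 58.0, 54.2 and 54.9 CPM per kilobase in Ago2 fl/fl, at 81.9, 86.8 and 73.8 in Ago2 ADH, and at 90.1 and 99.2 in Ago2 null. All 5 mutant libraries lay above the 3 controls. It was 49.9% higher in Ago2 ADH (log2 fold change 0.58, SE 0.0586, adjusted p = 1.14e-07) and 1.74-fold higher in Ago2 null (0.80, SE 0.0629, adjusted p = 2.29e-08) in the quasi-likelihood test of edgeR, and all adjusted p-values given are Benjamini-Hochberg values from it. In Dicer WT it stood at 48.3, 48.6 and 43.4 and in Dicer KO at 48.3, 47.3 and 56.5. These groups overlapped, and the difference of 0.11 (SE 0.0788) did not pass the test (adjusted p = 0.253). Levels were scaled over all 14 libraries and fold changes within a comparison, so their ratios differ slightly.

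Padi6, the peptidylarginine deiminase of the oocyte, also rose in both Ago2 mutants. Its level was 619, 587 and 597 in Ago2 fl/fl, 722, 737 and 722 in Ago2 ADH, and 692 and 795 in Ago2 null, with no overlap between mutants and control. It rose 1.25-fold in Ago2 ADH (0.32, SE 0.0404, adjusted p = 2.15e-06) and 1.26-fold in Ago2 null (0.34, SE 0.0576, adjusted p = 0.000136). In the Dicer series the groups overlapped, at 439, 404 and 399.7 in Dicer WT and 379, 397 and 439 in Dicer KO (-0.04, SE 0.0648, adjusted p = 0.685).

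Nlrp5, whose protein MATER is the founding member of the complex, stood at 317, 311 and 321 in Ago2 fl/fl, 388, 361 and 386 in Ago2 ADH, and 337 and 369 in Ago2 null. It rose 1.24-fold in Ago2 ADH (0.31, SE 0.0453, adjusted p = 1.56e-05) and was 1.14-fold higher in Ago2 null (0.19, SE 0.0530, adjusted p = 0.00701). The Ago2 null call was lost without Ago2 fl/fl replicate 1, 2 or 3 (adjusted p = 0.0125, 0.0466 and 0.0202) and without Ago2 null replicate 2 (adjusted p = 0.0885), with values of 0.12 to 0.21. In Dicer WT it was 319.6, 262 and 308, and in Dicer KO 294, 307 and 339, which overlapped (0.08, SE 0.0737, adjusted p = 0.415).

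Ooep was the only member called in opposite directions in the 2 series at an FDR of 1%. Its level was 1983, 1868 and 1733 in Ago2 fl/fl, 1433, 1369 and 1429 in Ago2 ADH, and 1547 and 1552 in Ago2 null, so all 5 mutant libraries lay below the controls. It fell by 21.7% in Ago2 ADH (-0.35, SE 0.0465, adjusted p = 3.91e-06) and by 14.9% in Ago2 null (-0.23, SE 0.0540, adjusted p = 0.00185). The Ago2 null call was lost without Ago2 fl/fl replicate 2 (-0.22, adjusted p = 0.0255). In Dicer WT it stood at 824, 766 and 831 and in Dicer KO at 949.8, 917 and 940.0, with the 3 mutant libraries above the controls. It was 1.16-fold higher there (0.21, SE 0.0573, adjusted p = 0.00563). This Dicer call was lost without Dicer WT replicate 1 or 2 (adjusted p = 0.0170 and 0.0352) or Dicer KO replicate 1 or 2 (0.0143 and 0.0194), with values of 0.16 to 0.23.

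Tle6, a relative of the Groucho co-repressors that serves as a structural part of the complex, was lower in every mutant. It stood at 489.9, 457 and 444 in Ago2 fl/fl, 392.1, 395 and 389 in Ago2 ADH, and 375 and 385 in Ago2 null. It fell by 12.6% in Ago2 ADH (-0.19, SE 0.0443, adjusted p = 0.00121) and by 16.3% in Ago2 null (-0.26, SE 0.0545, adjusted p = 0.000951). Without Ago2 fl/fl replicate 2 the Ago2 null value had an adjusted p of 0.0101. Its largest change was in Dicer KO, from 300.4, 309 and 297 to 215, 216 and 227, where it fell by 27.5% (-0.46, SE 0.0567, adjusted p = 1.97e-06) and the groups did not overlap.

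Zbed3 stood at 2433, 2422 and 2397 in Ago2 fl/fl, 2050.5, 2078 and 2112 in Ago2 ADH, and 2077 and 1913 in Ago2 null. It fell by 11.1% (-0.17, SE 0.0378, adjusted p = 0.000953) and by 15.7% (-0.25, SE 0.0495, adjusted p = 0.000582). Both calls were lost without Ago2 fl/fl replicate 2 (adjusted p = 0.0106 and 0.0133). In Dicer WT it was 2282, 2441 and 2431 and in Dicer KO 2609, 2429 and 2396, with overlap (0.05, SE 0.0591, adjusted p = 0.501).

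Nlrp4f, a rodent NLR gene of the oocyte whose protein associates with the complex, fell in all 3 mutants. Its level was 175, 169.6 and 169 in Ago2 fl/fl, 132, 135 and 136 in Ago2 ADH, and 129 and 148 in Ago2 null. The log2 fold changes were -0.30 (SE 0.0428, adjusted p = 9.65e-06) and -0.27 (SE 0.0598, adjusted p = 0.00113). The second was not called without Ago2 fl/fl replicate 2 (adjusted p = 0.0102) or Ago2 null replicate 1 (-0.18, adjusted p = 0.0226). In the Dicer series it went from 235, 213 and 221 to 192, 190.3 and 179 (-0.25, SE 0.0596, adjusted p = 0.00173), with no overlap, and without Dicer WT replicate 1 it had an adjusted p of 0.0168.

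Nlrp2, another maternal NLR gene, stood at 80.8, 80.3 and 84.9 in Ago2 fl/fl, 75.8, 74.6 and 79.3 in Ago2 ADH, and 68.4 and 66.0 in Ago2 null. The change in Ago2 ADH did not pass the test (-0.05, SE 0.0487, adjusted p = 0.393), and counts scaled within that comparison overlapped. In Ago2 null it fell by 16.3% (-0.26, SE 0.0570, adjusted p = 0.00134), a call lost without Ago2 fl/fl replicate 3 (-0.22, adjusted p = 0.0128). It also fell by 15.3% in Dicer KO (-0.24, SE 0.0576, adjusted p = 0.00223), from 108, 101 and 107 to 88.2, 92.0 and 88.8, and that call was lost without Dicer WT replicate 1 (adjusted p = 0.0137).

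Ago2 ADH and Ago2 null oocytes were also compared directly, which sets a catalytically dead allele against deletion of both alleles. Ago2 mRNA was higher in Ago2 ADH (1.06, SE 0.148) and was still counted in Ago2 null. None of the 8 members passed an FDR of 1% by edgeR or DESeq2, and 0.119% of all 19306 transcripts did by edgeR. At an unadjusted p under 0.05 there were 3 members in edgeR: Khdc3 (-0.23, SE 0.0731), Nlrp2 (0.19, SE 0.0624) and Ooep (-0.14, SE 0.0522), with adjusted p-values of 0.272, 0.306 and 0.375. The other 5 members had log2 fold changes of -0.05 to 0.10 with SEs of 0.0532 to 0.0638. Ago2 null had 2 libraries, and a missed threshold does not show that the groups were alike.

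The difference between the Ago2 ADH and the Dicer KO effect was tested as an interaction. It asks whether the change of a member against the control of its series differed between these genotypes. Ago2 ADH oocytes also had Cre and less Ago2 mRNA, so loss of cleavage alone was not set against loss of the small RNAs. Ooep passed at an FDR of 1% (-0.61, SE 0.0734, adjusted p = 6.97e-06), 1 of 8 members against a background of 3.55% of 19500 transcripts. It was lower in 3 of 3 Ago2 ADH libraries and higher in 3 of 3 Dicer KO libraries than in every control of its series. For Zbed3 (-0.27, adjusted p = 0.0105), Khdc3 (0.42, adjusted p = 0.0128) and Padi6 (0.31, adjusted p = 0.0149) the difference did not pass, and DESeq2 called all 3 and Tle6 as well. Between these effects genotype and series cannot be told apart, since each series had its own control. By the lane numbers in the names under which the counts were deposited, each Ago2 genotype was also run on its own lane, and in that series the effects of lane and of genotype cannot be told apart.

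**Figure D3:**
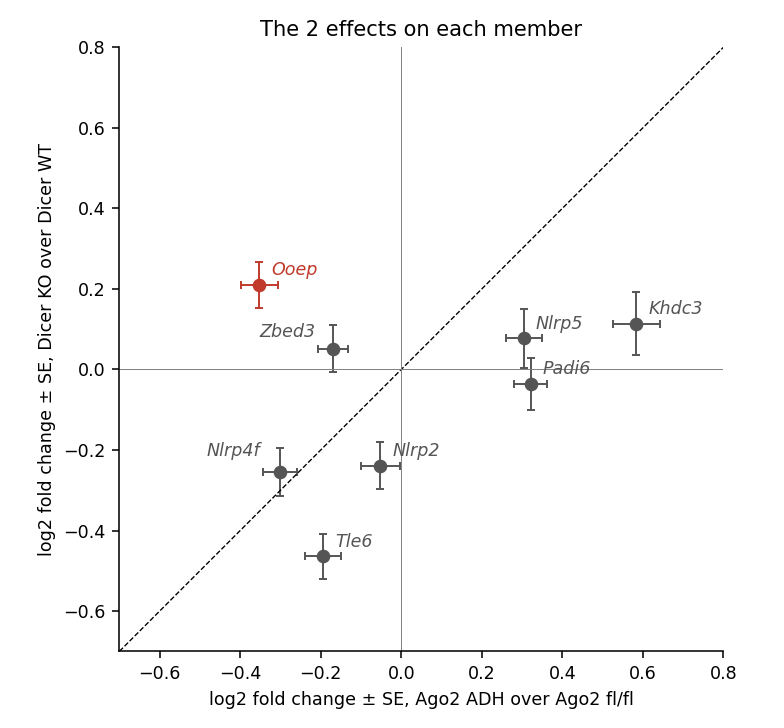
Log2 fold change ± SE of each member in Ago2 ADH over Ago2 fl/fl (horizontal axis) and in Dicer KO over Dicer WT (vertical axis); the dashed line marks equal effects. Ooep, in red, lay in the upper left quadrant at -0.35 and 0.21 and was the member that passed the interaction test at an FDR of 1%.

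The proportions of the members within a library shifted with these changes. Ratios of levels do not depend on the scaling between libraries, and the 3 ratios given were chosen after their values were seen, so they are a description. The level of Padi6 over that of Tle6 was 1.26 to 1.35 in Ago2 fl/fl, 1.84 to 1.86 in Ago2 ADH, 1.84 to 2.06 in Ago2 null, 1.31 to 1.46 in Dicer WT and 1.76 to 1.93 in Dicer KO. In the Ago2 series Padi6 rose and Tle6 fell, and in the Dicer series the shift came with the fall of Tle6. Nlrp5 over Nlrp4f was 1.81 to 1.90 in Ago2 fl/fl, 2.67 to 2.93 in Ago2 ADH and 2.50 to 2.61 in Ago2 null, and 1.23 to 1.39 in Dicer WT and 1.53 to 1.89 in Dicer KO. Khdc3 over Ooep was 0.0290 to 0.0317 in Ago2 fl/fl, 0.0517 to 0.0634 in Ago2 ADH and 0.0582 to 0.0639 in Ago2 null, whereas Dicer WT (0.0522 to 0.0635) and Dicer KO (0.0509 to 0.0601) overlapped.

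**Figure D4:**
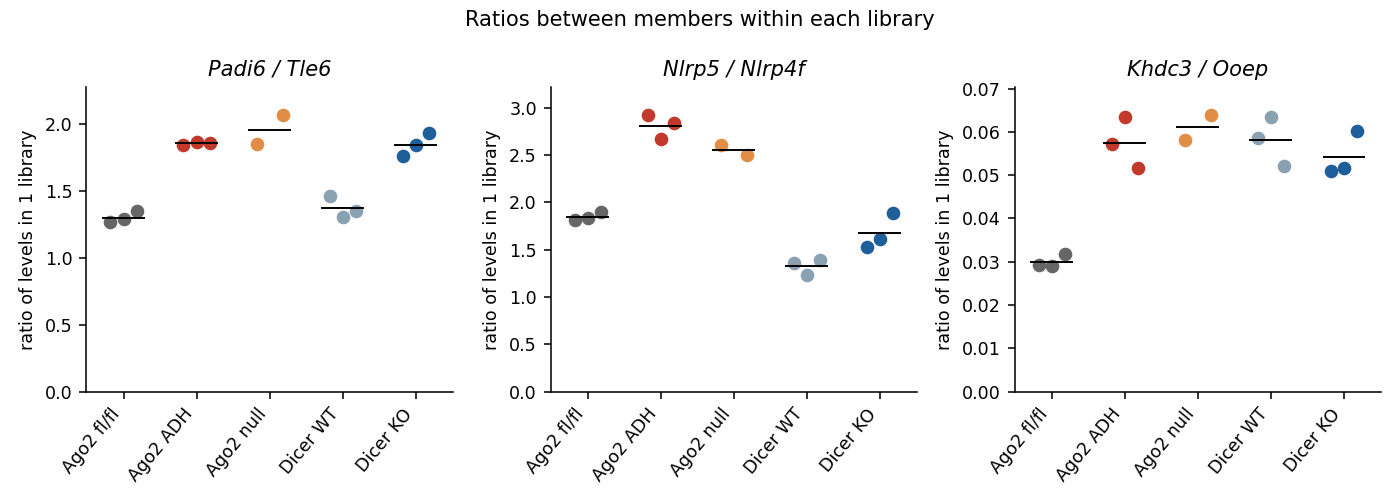
Ratio of the levels of 2 members in each library (points; bars are group means), for Padi6 over Tle6, Nlrp5 over Nlrp4f and Khdc3 over Ooep, by group. Padi6 over Tle6 was 1.76 or above in all 8 mutant libraries and at 1.46 or below in the 6 control libraries.

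Across the 14 libraries, after the mean of each series was subtracted from log2(CPM + 1), the 28 pairs of members had Pearson correlations from -0.95 (Padi6 with Zbed3) to 0.89 (Khdc3 with Padi6), with a median of -0.31. Of the pairs, 8 were above 0.5 and 11 below -0.5. Tle6 went with Nlrp4f (0.84) and Nlrp2 (0.81), and Padi6 with Nlrp5 (0.76). The points share libraries and genotypes, and the values are a description. By the same measure over 9917 transcripts, the gene most like Nlrp5 was Rcc2 (0.90), that most like Ooep was Homer2 (0.93), and those for Tle6 and Khdc3 were Mpped1 (0.99) and Col9a3 (0.96). For Padi6 it was Mcl1 (0.93), for Zbed3 Egr1 (0.97), for Nlrp2 Spag1 (0.98) and for Nlrp4f Pramel26 (0.98). Homer2 was lower in Ago2 ADH (-0.54, SE 0.0696) and higher in Dicer KO (0.51, SE 0.0873). It was picked for its likeness to Ooep in these same libraries, so the shared pattern is no separate result.

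Other genes of the same biology were counted by list, and the medians stand beside 0.0069 for all transcripts in Ago2 ADH and -0.0044 in Dicer KO. Of 4 partners of the complex and lattices, 2 rose in Ago2 ADH, Cfl1 (cofilin, which severs actin, 0.22, SE 0.0493) and Ube2d3 (a ubiquitin-conjugating enzyme, 0.17, SE 0.0440), none fell, and the median was 0.13. In Dicer KO Cfl1 rose (0.33, SE 0.0620) and Nlrp14 fell (-0.36, SE 0.0703), with a median of 0.08. In Ago2 null none of the 4 passed. Uhrf1, a lattice protein that guides DNA methylation, passed in neither (0.09 and 0.06).

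Of 6 regulators of oocyte gene transcription, 4 rose in Ago2 ADH and none fell (median 0.37): Sohlh2 (1.35, SE 0.119), Nobox (0.41, SE 0.0569), Figla (0.33, SE 0.0939) and Lhx8 (0.20, SE 0.0446). In Dicer KO 5 were tested and 2 rose, Sohlh2 (0.58, SE 0.172) and Nobox (0.33, SE 0.0569), with a median of 0.13. In Ago2 null 4 of 6 rose and none fell (median 0.36). Figla itself was also higher in Ago2 null (0.43, SE 0.119, adjusted p = 0.00628), and stood at -0.01 in Dicer KO (SE 0.116, adjusted p = 0.941).

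Of 14 other maternal-effect genes, 2 rose and 4 fell in Ago2 ADH (median 0.01), 2 rose and 4 fell in Ago2 null (median -0.04), and 3 rose and 7 fell in Dicer KO (median -0.17). The largest were Zfp36l2, an RNA-decay factor (1.38, SE 0.129, and 1.14, SE 0.219), the zinc finger gene Bnc1 (-0.61, SE 0.0533, and -0.73, SE 0.0608) and the DNA methyltransferase Dnmt1 (-0.46, SE 0.0457, and -0.49, SE 0.0566). Dppa3 fell in Ago2 ADH (-0.35, SE 0.0425) and Dicer KO (-0.30, SE 0.0582). Zar1 fell in Dicer KO (-0.35, SE 0.0589) and was not called in Ago2 ADH (-0.15, SE 0.0464).

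Several paralogs of the members changed by more than 2-fold, which no member did. Of 13 tested in Ago2 ADH, 7 rose and 1 fell (median 0.66), of 14 in Ago2 null, 7 rose and 1 fell (median 0.53), and of 15 in Dicer KO, 7 rose and 1 fell (median 0.43). Dppa5a, a KH-domain gene of the Khdc3 and Ooep family, rose by 2.57 (SE 0.0520) and 2.50 (SE 0.0743) on the log2 scale. Its relative Khdc1a rose by 1.34 (SE 0.0526) and 1.78 (SE 0.0612). Tle4 rose in Ago2 ADH (0.94, SE 0.0657) and Dicer KO (0.41, SE 0.0930), and so did Tle5 (0.50, SE 0.128, and 1.09, SE 0.180). Padi1 rose in Ago2 ADH from 9.85 to 11.2 normalized counts to 29.1 to 40.5, and Tle3 in Dicer KO from at most 2.56 to 11.6 to 23.5, which are low counts.

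Of 9 other oocyte Nlrp genes listed, 7 were matched in the tables. In Ago2 ADH 2 rose and 5 fell (median -0.25), in Ago2 null 1 rose and 5 fell (median -0.33), and in Dicer KO 1 rose and 5 fell (median -0.40). Nlrp4c rose in Ago2 ADH (0.54, SE 0.0913), while Nlrp4b (-0.46, SE 0.0469, and -0.60, SE 0.0563) and Nlrp4a (-0.38, SE 0.0440, and -0.40, SE 0.0575) fell in both, as did Nlrp9c (-0.30, SE 0.0520, and -0.41, SE 0.0709). Nlrp9b fell in Ago2 ADH (-0.24, SE 0.0514) and Dicer KO (-0.40, SE 0.0564). Genes of this family, which includes the members Nlrp5, Nlrp2 and Nlrp4f, can share reads. Reads that aligned to several places were tallied apart, so the values of all these genes are uncertain to that extent. Of 7 zona and egg surface genes, Zp3 (0.34, SE 0.0401), Zp2 (0.29, SE 0.0447) and the zona-cutting protease Astl (0.28, SE 0.0520) rose in Ago2 ADH (median 0.19), 4 rose in Ago2 null (median 0.27), and Cd9 fell in Dicer KO (-0.38, SE 0.0809, median -0.08).

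**Figure D5:**
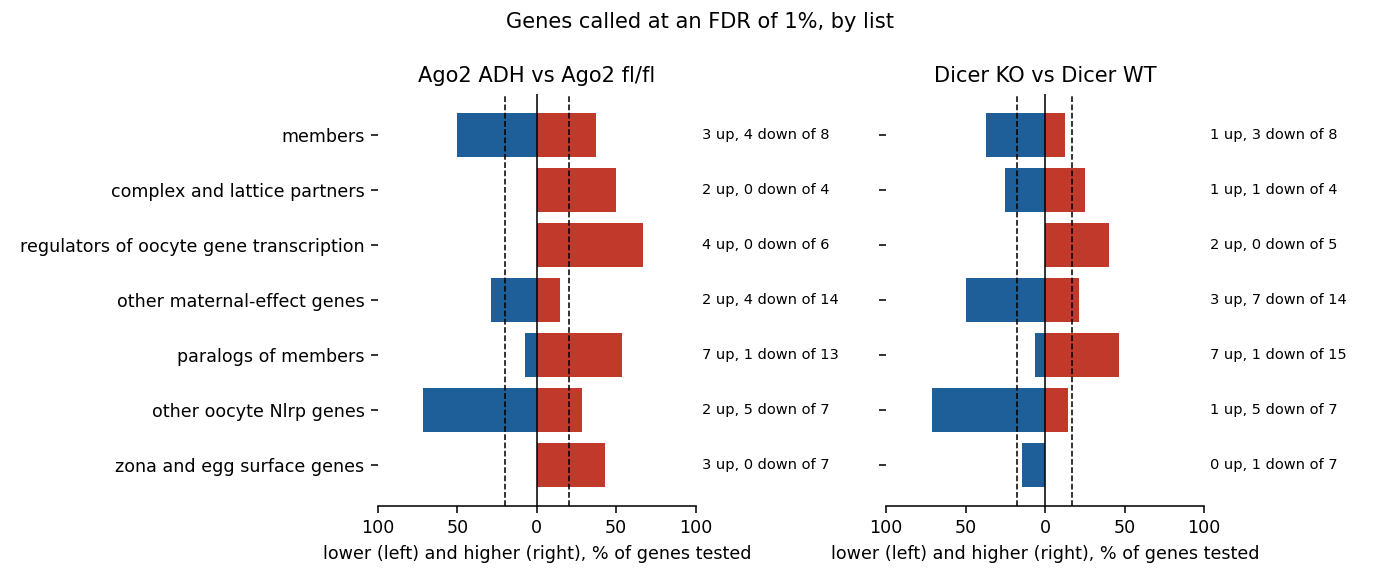
Share of the genes tested in each list that were higher (red, right) or lower (blue, left) at an FDR of 1% in Ago2 ADH over Ago2 fl/fl and in Dicer KO over Dicer WT, with counts at the right of each panel. Dashed lines mark the shares over all transcripts, 20.5% higher and 20.1% lower in Ago2 ADH, and 16.7% and 17.8% in Dicer KO.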

How the data were processed

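RNA-seq of 14 libraries was analysed. The authors amplified cDNA from oocyte lysates, aligned paired-end reads to mm10 with TopHat2 (2.0.7 per the labels) with up to 100 alignments per read, and deposited raw counts per RefSeq transcript from htseq-count without regard to strand. The tallies of htseq-count for no feature (5.96 to 9.65% of each file's sum) and for several alignments (25.6 to 58.3%) name no gene and were left out of library sizes. Of 26495 transcripts, 26081 were matched to a symbol through RefSeq and 113 through GENCODE.

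Each comparison was fitted on its own libraries with edgeR 4.0.16 in R 4.3.3: filterByExpr (minimum count 10, minimum total count 15), TMM, the quasi-likelihood test and Benjamini-Hochberg adjustment over all transcripts at an FDR of 1%. The SE is the absolute log2 fold change divided by the square root of F. Lengths were those of GENCODE transcripts. Summaries used Python 3.11.15, numpy 2.4.6 and pandas 2.3.3. The fits were tested on simulated counts. DESeq2 1.42.0 and other settings were alternatives. The named genes were the members, Ago2, Dicer1, the gene most like each member among transcripts with a mean of at least 10 CPM, and from each list up to 4 called genes with the largest change. The members and lists were chosen with earlier results of these data known. Intervals from counts would cover counting error only, since reads carried no molecular identifiers.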

Additional observations from a re-analysis of the deposited data

Results flagged for a closer look

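The change of Ooep differed between the Ago2 ADH and the Dicer KO comparison. The interaction was -0.61 on the log2 scale (SE 0.0734, adjusted p = 6.97e-06 by edgeR's quasi-likelihood test), with a fall of 0.35 against a rise of 0.21. Ooep kept this call in 19 of 19 alternatives run for the interaction.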

How the results depend on the processing

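Among values of called members under the alternatives, 90 of 91 kept the call in Ago2 ADH, 82 of 96 in Ago2 null, 45 of 52 in Dicer KO and 19 of 19 for the interaction, and none reversed. These include the FDR of 5%, which could not lose a call. With each replicate left out in turn, the number of members called was 6 to 7 in Ago2 ADH, 3 to 7 in Ago2 null, 1 to 4 in Dicer KO, 0 to 0 in Ago2 ADH against Ago2 null and 1 to 4 for the interaction. Values that changed sign were not called in any fit: Padi6 in Dicer KO (-0.096 to 0.0094), Nlrp5 in Dicer KO (-0.013 to 0.13), and, in Ago2 ADH against Ago2 null, Padi6 (-0.12 to 0.066), Zbed3 (-0.0024 to 0.13) and Nlrp4f (-0.13 to 0.051). The interaction called 5 members by DESeq2, 3 with RLE normalization, 4 without the filter on low counts and 4 at an FDR of 5%; the cause was not tested.

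Deviations from the group means correlated at -0.160 to 0.0702 between libraries of the same number, so the numbers showed no clear pairing. With so few libraries per group, these values cannot show whether libraries of the same number were collected together. With the replicate number as a block, 7 members were called in Ago2 ADH, 5 in Ago2 null (Nlrp5, Zbed3 and Nlrp2 were not, with adjusted p-values of 0.0546, 0.0158 and 0.0297) and 3 in Dicer KO (Ooep was not, 0.0201). The block took the transcripts called from 7663 to 7679 in Ago2 ADH, 7157 to 6041 in Ago2 null, 6412 to 5678 in Dicer KO, 23 to 142 in Ago2 ADH against Ago2 null and 692 to 537 for the interaction.

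In Ago2 ADH against Ago2 null, DESeq2 called 81 transcripts, the fit without a filter 94 and an FDR of 5% 56. For the interaction, DESeq2 called 1104 (513 higher and 591 lower, against 234 and 458 by edgeR) and an FDR of 5% 1638. Levels moved by more than 1 SD in 4 cases with RLE normalization and, for Ooep in all 5 groups, with its length limited to the RefSeq gene bounds, an alternative chosen after seeing the data. All members lay far above the limit set by 3 counts.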
